A study of Mus musculus with 4 samples.

Results

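The translation elongation factor genes of female germline stem cells (FGSCs) were examined, 8 of the 53465 genes in the deposited table: *Eef1a1*, *Eef1b2*, *Eef1d*, *Eef1e1*, *Eef1g*, *Eef2*, *Eef2k* and *Eefsec*. They were picked by gene name, as genes of the eEF1 and eEF2 factors, the eEF2 kinase and 2 genes of related name, by a rule that uses no measured value, although earlier results of these data were known. The study asked how RNA levels differ between mouse FGSCs carrying a control hairpin (shNC) and FGSCs in which *Nat10*, the enzyme that writes N4-acetylcytidine (ac4C) on RNA, was knocked down by shRNA (shNAT10). Both groups were cultured cells of ovarian origin that had been infected with lentivirus and selected with an antibiotic, and each was sequenced as 2 libraries of long RNA. The labels give no age, strain or hairpin identity, and they do not say whether the 2 libraries of a group came from separate cultures, which the paper calls biological replicates. The p-values therefore measure only the spread between these libraries.

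During elongation, eEF1A in its GTP form brings each aminoacyl-tRNA to the ribosome, and the eEF1B complex then exchanges its GDP for GTP so that it can be used again. eEF2 is the GTPase that moves the ribosome along the mRNA by one codon, and its kinase, eEF2K, inactivates it by phosphorylation. *Eef1a1* encodes the eEF1A isoform of most proliferating cells. *Eef1b2* and *Eef1d* encode the exchange subunits of eEF1B, and *Eef1g* its structural subunit. Despite its name, *Eef1e1* encodes a scaffold protein of the multisynthetase complex (also called AIMP3), and *Eefsec* encodes the separate factor that delivers selenocysteinyl-tRNA at recoded stop codons. The mRNAs of eEF1A, eEF2 and eEF1B subunits belong, like those of ribosomal proteins, to the class with a terminal oligopyrimidine tract, whose translation responds to mTOR.

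The libraries held between 11.1 and 14.9 M (mega) fragments on genes, recovered as whole numbers from the deposited FPKM (fragments per kilobase of exon and per M of library size, which allows genes of different length to be compared). The library size in these values follows median-ratio size factors and is not the total of fragments. In the library order shNC-1, shNC-2, shNAT10-1 and shNAT10-2, which is kept below, loci that collect reads of rRNA, 7SK and 7SL, *Gm42418* and *Gm26917* among them (rRNA-related loci), took 48.0%, 37.9%, 26.3% and 28.2% of these fragments. *Nat10* stood at 7.79, 5.42, 2.95 and 3.04 FPKM and fell by 1.09 on the log2 scale (standard error (SE) 0.21; limma p = 0.00411, Benjamini-Hochberg adjusted p = 0.123; limma-voom adjusted p = 1.65e-05; exact permutation p = 0.33). Markers of the labelled cell type were scarce: of 8 germline markers, *Dazl*, *Pou5f1* and *Dppa3* were at 0 in all libraries and only *Ifitm3* had a mean above 1 FPKM. All 6 pan-leukocyte markers, *Ptprc* and *Lcp1* among them, had means above 1 FPKM and summed to 300, 325, 270 and 283 FPKM, with 3 of the 6 lower and none (0) higher at the threshold used here. The sums in the same library order were 9.91, 22.7, 27.8 and 34.4 FPKM for the germline list, 246, 263, 276 and 271 FPKM for the mast cell list, 51.7, 44.8, 60.7 and 51.4 FPKM for the fibroblast list, and 48.1, 52.9, 38.1 and 43.3 FPKM for the macrophage list. A mean of at least 1 FPKM was reached by only 2 of 7 mast cell markers (*Cpa3* and *Ms4a2*), with *Tpsb2* and *Fcer1a* at 0. It was reached by 3 of 6 fibroblast and 3 of 5 macrophage markers. Of the markers tested, 2 of 5 for fibroblasts and 1 of 3 for mast cells were higher, and 1 of 4 for macrophages was higher and 1 lower. None (0) for the germline, meiosis, oocyte and granulosa cell lists was called. Meiosis markers summed to at most 2.52 FPKM (*Stra8* and *Dmc1* at 0, and only *Sycp1* with a mean of at least 1 FPKM). Oocyte markers summed to at most 0.292 FPKM (5 of 8 at 0, *Zp2* and *Zp3* among them). Granulosa cell markers summed to at most 0.547 FPKM (*Foxl2* and *Fshr* at 0). The part of these marker and rRNA differences in the results that follow was not tested. In bulk RNA, fewer cells of one type and less RNA per cell cannot be told apart.

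*Eef1a1* lies on chr9:78478449-78489151 of GRCm38, minus strand, with 2493 nt of annotated exon, of which 1386 nt are coding. The study targeted this gene with 3 hairpins in other experiments, and their target sites show which stretches of the coding sequence *Eef1a1* shares with other loci. None of these hairpins was used in the libraries described here. Each target is printed as the mRNA strand in lower case.
Y41120: gcgtggtatcactattgacat
Y41121: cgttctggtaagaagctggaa
Y41122: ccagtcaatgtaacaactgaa
These 21-nt targets lie within coding exons at chr9:78480341-78480361, chr9:78479058-78479078 and chr9:78479443-78479463. The exact 21 bases also occur in annotated transcripts of 3, 8 and 9 other genes, respectively, of which 2, 6 and 7 are annotated as processed pseudogenes. Only 1 of these other genes, the processed pseudogene *Gm13456*, holds all 3 targets.

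For the measurement of *Eef1a1* itself, windows of 150 nt, the read length, were compared across all annotated transcripts. Of its windows, 5.76% also occurred in another gene, namely the processed pseudogenes *Gm13456*, *Gm6767* and *Gm5869*. In windows of 50 nt the shared part was 40.4%, spread over 21 genes. The 3 pseudogenes together received between 0.273 and 0.293 fragments for every 100 of *Eef1a1*, so that little of the signal was assigned to them in any library. How reads that fit several loci were handled is not given in the sources used here.

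The promoter windows of RefSeq (GRCm38.p6, from 250 bases before to 50 bases after each transcript start) were searched on both strands for TATAAA and TATATA. The motifs can overlap each other, and a gene with both was counted once. Windows were available for 6 members. A match was found for the most abundant pair, *Eef1a1* and *Eef2*, and the 30 bases around each are shown with the match in capitals.
Eef1a1: gggggagaacggTATATAagtgcggcagtc
Eef2: ccggcgtcgaccTATAAAaggccgggcgtt
The *Eef1a1* stretch is chr9:78481684-78481713 on the minus strand, with the match beginning at base 24 after the annotated RefSeq start. The *Eef2* stretch is chr10:81176604-81176633 on the plus strand, with the match beginning at base -15. No match lay in the windows of *Eef1b2*, *Eef1e1*, *Eef2k* and *Eefsec*. Of all 27025 genes with a window, 19.6% held one of the motifs, so that a match is a common feature and is given as a description only.

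The 8 genes spanned a wide range of levels. Per length, *Eef1a1* was the highest, with a mean of 1390 FPKM over the 4 libraries, followed by *Eef2* (1083 FPKM), *Eef1b2* (276 FPKM), *Eef1g* (42.2 FPKM), *Eef1e1* (23.1 FPKM), *Eef1d* (11.01 FPKM), *Eef2k* (6.67 FPKM) and *Eefsec* (2.87 FPKM). Only *Eef1a1* and *Eef2* overlapped as neighbours in this order, with a ratio of 1.28 between their means, and within each library *Eef1a1* was the higher. All other neighbours were separated in all 4 libraries, by ratios of 1.65 (*Eef1d* over *Eef2k*) to 6.55 (*Eef1b2* over *Eef1g*). *Eef1a1* stood 484-fold above *Eefsec*. *Eef1a1* ranked 6, 7, 12 and 13 among the 22040 protein-coding genes of the table, and *Eef2* ranked 12, 15, 19 and 18. The paralogue *Eef1a2*, which replaces *Eef1a1* in muscle and neurons, was listed at 0 in every library.

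Exon length entered this order. *Eef1d* has 18 annotated transcripts and 6488 nt of exon, of which 2037 nt are coding, and its FPKM is divided by the whole exon length. Its fragments, 811, 815, 945 and 1115, were close to the 976, 941, 884 and 1049 fragments of *Eef1e1* (3257 nt of exon), whereas its FPKM was lower in every library. Which isoforms were present cannot be read from gene values.

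**Figure D1:**
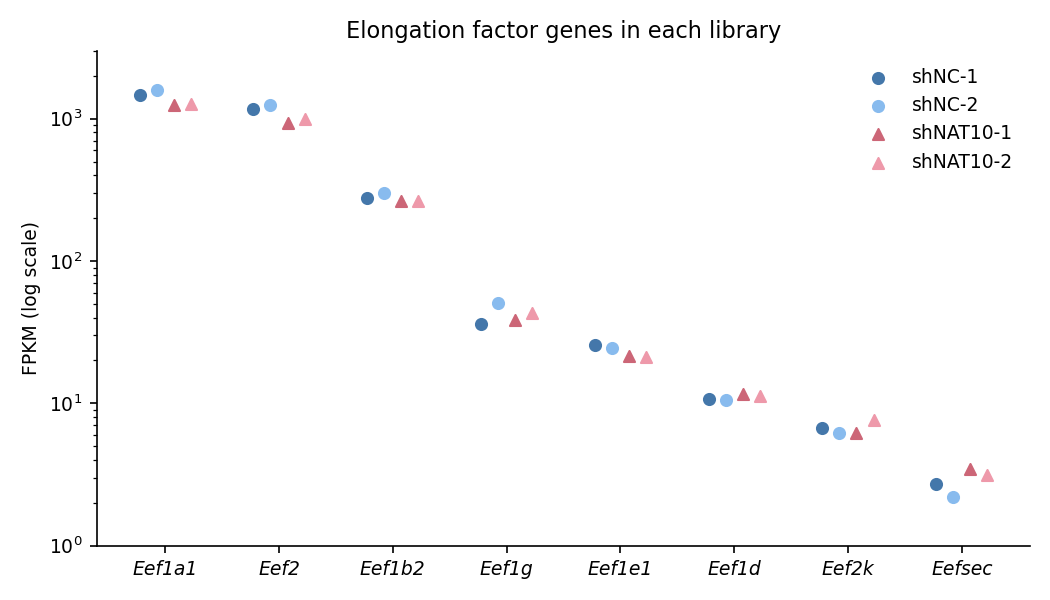
FPKM of the 8 elongation factor genes (log axis) in each library, ordered by mean level; circles are the shNC and triangles the shNAT10 libraries. *Eef1a1* and *Eef2* lie between 929 and 1584 FPKM, while *Eefsec* stays between 2.20 and 3.47 FPKM.

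Expression in shNAT10 was compared with shNC by limma on log2(FPKM + 0.1) over the 20116 genes whose mean FPKM reached 0.1, and a gene was called when it differed by more than 1.2-fold with a two-sided p of at most 0.05 before adjustment. All 8 members passed the filter on low values. *Eef2* was the only member called, and it fell, against 7.83% of all genes called lower, 8.41% called higher and 16.2% called in either direction. A share of 1 in 8 members is near that background. None (0) of the members had an adjusted p under 0.05 by limma, which 0.437% of all genes reached, and 2 members (*Eef2* and *Eef1e1*) had an unadjusted p of at most 0.05, against 16.6% of all genes. In limma-voom on the recovered fragments, which weights genes by their depth, 2 members (*Eef1a1* and *Eef2*) had an adjusted p under 0.05, both lower, against 7.87% of all genes in either direction and 3.64% lower. The same 2 passed the fold and unadjusted p limits in that fit, against 19.4% of all genes.

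Of the members, 4 had both shNAT10 libraries below both shNC libraries (*Eef1a1*, *Eef2*, *Eef1b2* and *Eef1e1*), as did 24.1% of all genes. In 2 members (*Eef1d* and *Eefsec*) both shNAT10 libraries were above both shNC libraries, as in 23.9% of all genes, and *Eef1g* and *Eef2k* overlapped. The median log2 fold change of the 8 members was -0.10, beside 0.01 over all genes tested. It was -0.19 without shNC-1 and -0.00691 without shNC-2, and -0.0306 beside 0.07 for all genes with libraries scaled to the same FPKM total outside the rRNA-related loci. With 2 libraries against 2, the smallest p that a two-sided exact permutation test can give is 0.33, which every separated member had.

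**Figure D2:**
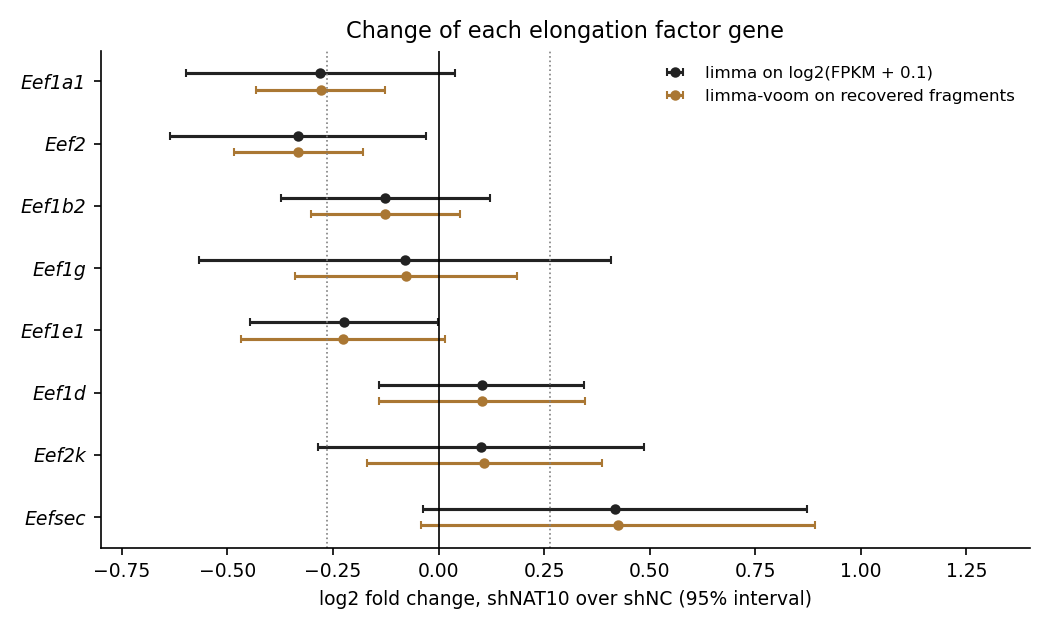
Log2 fold change of each member, shNAT10 over shNC, with its 95% interval (x axis), by limma on log2(FPKM + 0.1) (black) and by limma-voom on recovered fragments (brown); dotted lines mark a fold change of 1.2 in either direction. The point estimates of both fits nearly coincide, from -0.33 for *Eef2* to 0.42 (limma) for *Eefsec*, and the intervals of *Eef1a1* and *Eef2* are narrower by voom.

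*Eef2*, on chr10:81176631-81182498 (plus strand), measured 1169 and 1245 FPKM in the controls, against 929 and 989 FPKM after knockdown. Both knockdown libraries lay below both controls. The gene fell by 0.33 on the log2 scale (SE 0.11, 95% interval -0.64 to -0.03, limma p = 0.0377 and adjusted p = 0.270, limma-voom adjusted p = 0.00374, exact permutation p = 0.33), a difference of -20.6% between the means. Its libraries held 38746 to 50382 fragments, and no 150-nt window of its transcripts occurred in another gene. In windows of 50 nt the shared part was 7.10%, spread over 4 genes. The call was lost with no filter on low values, without the limma trend and with the replicate number as a block. It was also lost with libraries scaled to the same FPKM total outside the rRNA-related loci (-0.26) and after quantile normalization (-0.21). It held with limma-voom, both other pseudocounts and a mean FPKM of at least 1. With 1 library left out, the log2 fold change was -0.38 without shNC-1, -0.29 without shNC-2, -0.29 without shNAT10-1 and -0.38 without shNAT10-2.

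*Eef1a1* measured 1466 and 1584 FPKM in the controls, against 1241 and 1270 FPKM after knockdown. Again both knockdown libraries were below both controls, and the gap between the groups was wider than the gap within either. Group means were 1525 ± 83.7 FPKM and 1255 ± 20.5 FPKM (SD, n = 2), a difference of -17.7%. The log2 fold change was -0.28 (SE 0.12, 95% interval -0.60 to 0.04, limma p = 0.0726 and adjusted p = 0.351, exact permutation p = 0.33), so that limma did not call it, while limma-voom gave an adjusted p of 0.0159. The fits differ in the error they assign and not in the estimate. *Eef1a1* had 38828 to 48534 fragments in a library, and counting error alone would give the shNC libraries a log2 gap with an SD of 0.00964, beside the measured gap of 0.11.

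*Eef1b2* (chr1:63176825-63180486, plus strand), the catalytic exchange subunit, measured 275 and 302 FPKM in the controls, against 263 and 265 FPKM after knockdown. The shNAT10 libraries were nearly equal and lay just under the lower control. Its log2 fold change was -0.13 (95% interval -0.37 to 0.12, limma adjusted p = 0.568), which was not called. It was -0.19 without shNC-1, -0.06 without shNC-2, -0.26 after quantile normalization and -0.05 with libraries scaled to the same FPKM total outside the rRNA-related loci.

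*Eef1g* (chr19:8967041-8978479, plus strand), the structural subunit, measured 36.3 and 50.9 FPKM in the controls, against 38.5 and 43.1 FPKM after knockdown. The controls enclosed both knockdown libraries. The log2 fold change was -0.08 (95% interval -0.57 to 0.41, adjusted p = 0.868 by limma). It was 0.16 without shNC-2 and 0.00238 without shNAT10-1, but -0.32 without shNC-1 and -0.16 without shNAT10-2, so that its direction rests on single libraries. The log2 gap of 0.49 between the shNC libraries far exceeded the SD of 0.06 that counting error alone gives. *Eef1g* also shared most with other loci: 26.4% of its 150-nt windows occurred in processed pseudogenes, chiefly *Gm4366*, which together received 1.46 to 3.50 fragments per 100 of *Eef1g*.

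*Eef1d* (chr15:75894205-75909556, minus strand), the other exchange subunit, measured 10.6 and 10.6 FPKM in the controls, against 11.6 and 11.2 FPKM after knockdown. Both knockdown libraries were slightly above the controls, opposite to *Eef1b2*. The log2 fold change of 0.10 was not called (95% interval -0.14 to 0.35, limma adjusted p = 0.612), and it was 0.17 with libraries scaled to the same FPKM total outside the rRNA-related loci. Of its exons, 4.27% overlap the neighbouring gene *Naprt*, which received at most 9 fragments in a library.

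*Eef2k* (chr7:120842831-120907450, plus strand), the kinase that inactivates eEF2, measured 6.67 and 6.16 FPKM in the controls, against 6.19 and 7.64 FPKM after knockdown. The groups overlapped, and shNAT10-2 alone stood above the rest. The log2 fold change was 0.10 (95% interval -0.29 to 0.49, adjusted p = 0.770 by limma). It was -0.05 without shNAT10-2, 0.25 without shNAT10-1, 0.16 without shNC-1 and 0.05 without shNC-2. These are levels of the kinase mRNA, and neither kinase activity nor phosphorylated eEF2 was measured in these libraries.

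*Eef1e1* (chr13:38644207-38659058, minus strand) measured 25.5 and 24.3 FPKM in the controls, against 21.6 and 21.01 FPKM after knockdown. The groups were apart, with replicates close together in each. Its log2 fold change of -0.22 (95% interval -0.45 to -0.00237, limma p = 0.0484 and adjusted p = 0.298, exact permutation p = 0.33) is smaller than a fold change of 1.2, so the gene was not called. No window of either length occurred in another gene.

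*Eefsec* (chr6:88257334-88446539, minus strand) measured 2.71 and 2.20 FPKM in the controls, against 3.47 and 3.12 FPKM after knockdown. Both knockdown libraries lay above both controls, and it was the member with the fewest fragments (89, 73, 122 and 134). The log2 fold change of 0.42 was not called (SE 0.17, 95% interval -0.04 to 0.87, limma p = 0.0635 and adjusted p = 0.330, exact permutation p = 0.33). It was 0.27 without shNC-2, and with libraries scaled to the same FPKM total outside the rRNA-related loci it was 0.49 and passed the threshold (limma adjusted p = 0.282). An antisense gene, *Gm44264*, overlaps 308 nt of its 2801 nt of exon and received 20, 26, 30 and 37 fragments. If strand was not used in counting, reads of the pair cannot be told apart in the overlap.

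The make-up of the family within a library does not depend on a scaling by 1 factor per library, but it does on quantile normalization, which rescales each gene by its rank. *Eef1a1* held 49.0%, 49.1%, 49.4% and 48.7% of the summed FPKM of the 8 genes, a nearly constant share. *Eef2* held 39.1%, 38.6%, 36.9% and 37.9%, lower in both knockdown libraries, and *Eef1b2* held 9.19%, 9.36%, 10.5% and 10.2%, higher in both. The summed FPKM was 2992 and 3224 in shNC and 2514 and 2610 in shNAT10. Counted as fragments outside the rRNA, 7SK and 7SL loci, the family took 1.29% and 1.35% of the RNA in shNC and 1.10% and 1.15% in shNAT10.

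Relative to the factor it recharges, *Eef1b2* mRNA stood at 18.8 and 19.05 FPKM per 100 FPKM of *Eef1a1* in shNC and 21.2 and 20.9 in shNAT10. The replicates were tight and the groups separate. The log2 ratio differed by 0.15 between groups (pooled SD 0.015), but by 0.0213 after quantile normalization. *Eef1d* stood at 0.726 and 0.668 per 100 of *Eef1a1* in shNC and at 0.935 and 0.882 in shNAT10, a log2 difference of 0.38 (pooled SD 0.073), likewise without overlap. For *Eef1g* the values were 2.48, 3.21, 3.10 and 3.39 per 100, which overlapped (log2 difference 0.20, pooled SD 0.197, and 0.0141 without shNC-1 to 0.387 without shNC-2).

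*Eef2* stood at 79.8 and 78.6 per 100 of *Eef1a1* in shNC and at 74.8 and 77.9 in shNAT10, a log2 difference of -0.05 (pooled SD 0.031). The groups did not overlap, but their difference was about as large as the gap between the shNAT10 libraries, and it was -0.0243 without shNAT10-1 and -0.0813 without shNAT10-2. After quantile normalization its sign turned, to 0.0706. The kinase mRNA relative to its substrate, *Eef2k* per 100 of *Eef2*, was 0.570 and 0.495 in shNC and 0.667 and 0.773 in shNAT10. Here the groups were separate although *Eef2k* by itself overlapped, with a log2 difference of 0.43 (pooled SD 0.145). For the 4 separated ratios the exact permutation p was 0.33, the smallest possible. The share of all gene pairs that separate was not computed. Of single genes, 24.1% had both shNAT10 libraries below both shNC libraries and 23.9% above. All ratios but that of *Eef2k* share the denominator *Eef1a1*, so they are not separate results. Both denominators, *Eef1a1* and *Eef2*, were themselves lower in both shNAT10 libraries.

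**Figure D3:**
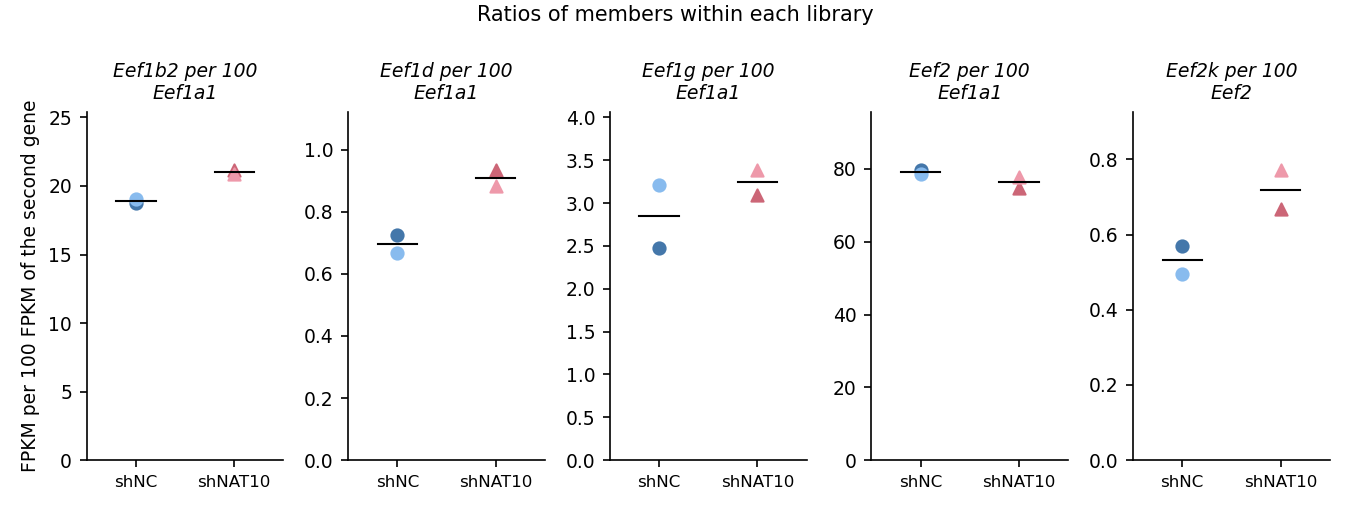
FPKM of 1 member per 100 FPKM of another within each library (y axis, from 0 in each panel), for shNC (circles) and shNAT10 (triangles), with the group mean as a line. *Eef1b2* per 100 *Eef1a1* lies at 18.8 and 19.05 in shNC and at 21.2 and 20.9 in shNAT10, and only the panel of *Eef1g* shows overlapping groups.

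The genes around the elongation cycle were counted by list, and each count is to be read against the 7.83% of all genes called lower and the 8.41% called higher. Of the other cytosolic elongation factors, *Eif5a*, which relieves stalled peptide bond formation, measured 492, 470, 466 and 463 FPKM and *Eif5a2* between 3.61 and 5.23 FPKM, and neither was called. None (0) of the 6 methyltransferases that modify lysines or the first residue of eEF1A, or a lysine of eEF2, was called (median log2 fold change 0.03). The largest estimate among them was 0.53 for *Mettl13* (adjusted p = 0.355 by limma), at 0.787, 1.02, 1.29 and 1.39 FPKM. Of the 7 genes that make diphthamide, the modified histidine of eEF2, *Dnajc24* rose (log2 fold change 0.33) and 6 were not called, with a list median of 0.05.

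The lists around *Eefsec* were selenocysteine incorporation and the selenoproteins. Of 6 genes for making and decoding selenocysteine, *Sephs1* rose (5.78, 5.84, 8.08 and 8.19 FPKM, log2 fold change 0.48, adjusted p = 0.143 by limma and 0.0222 by limma-voom), *Trnau1ap*, which binds the selenocysteine tRNA, fell by 0.42, and 4 were not called. *Sephs2*, which makes the selenium donor selenophosphate, measured 36.3, 32.4, 36.7 and 34.4 FPKM and was not called, and its paralogue *Sephs1* is not known to make it. Of 23 selenoprotein genes 19 were measured above the filter, of which 4 fell (21.1%, against 7.83% of all genes), 1 rose (5.26%, against 8.41%) and 14 were not called. The largest falls were in a pair of proteins of endoplasmic reticulum-associated degradation: *Selenok* measured 43.3, 52.0, 22.3 and 25.5 FPKM (log2 fold change -0.99, adjusted p = 0.0799 by limma and 2.82e-06 by limma-voom) and *Selenos* 99.3, 114, 56.7 and 61.8 FPKM (-0.84, adjusted p = 0.0734 by limma and 4.34e-06 by limma-voom). *Selenop*, a secreted selenium carrier, rose by 1.55 on the log2 scale, but from 0.330 and 0.652 FPKM to 1.77 and 1.38 FPKM. The list median was -0.06. It was 0.01 when libraries were scaled to the same FPKM total outside the rRNA-related loci, a scaling that moved the median of all genes alike, from 0.01 to 0.07.

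Around *Eef1e1*, the scaffold gene *Aimp1* fell (23.7, 28.6, 19.7 and 19.9 FPKM, log2 fold change -0.39) and *Aimp2* rose (5.40, 5.35, 6.60 and 7.14 FPKM, log2 fold change 0.35), while *Vars*, the synthetase that binds eEF1, was not called (0.14). The median of these 3 genes was 0.14. Of 5 mitochondrial elongation factors, *Tsfm*, the exchange factor of the mitochondrial counterpart of eEF1A, fell (11.9, 12.3, 8.50 and 8.45 FPKM, log2 fold change -0.51, adjusted p = 0.121 by limma and 0.026 by limma-voom). The other 4 were not called, *Tufm* (21.8, 22.8, 24.1 and 22.3 FPKM) among them, and the list median was 0.01.

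Of 8 genes for termination, ribosome recycling and rescue, the release factor GTPase *Gspt1* rose (28.2, 30.8, 41.4 and 38.4 FPKM, log2 fold change 0.44) and *Gtpbp2*, a GTPase of ribosome rescue, fell (23.4, 20.2, 12.4 and 14.5 FPKM, log2 fold change -0.69), with a median of 0.01. Of 11 genes upstream of eEF2 kinase, 3 fell (27.3%, against 7.83% of all genes) and 8 were not called. The largest were *Calm2* (log2 fold change -0.40), which encodes the activating subunit calmodulin, and *Rps6ka1* (-0.37), whose product is an inhibitory kinase. The median of this list was 0.01 and of selenocysteine incorporation 0.01, and they were -0.00101 and -0.000876 after quantile normalization. The medians of the methyltransferase, diphthamide, selenocysteine incorporation, selenoprotein, mitochondrial, termination and eEF2 kinase lists also changed sign when at least 1 of the libraries was left out.

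The comparison with the rest of the translation machinery sets the family in context. Of 79 cytosolic ribosomal protein genes, 21 fell, 58 were not called and none (0) rose. The share that fell was 26.6%, against 7.83% of all genes, and 8.41% of all genes rose. The median log2 fold change was -0.24, from -0.35 to -0.14 when a library was left out, and -0.17 with the same FPKM total outside the rRNA-related loci, where the median of all genes was 0.07. Many genes of this list have processed pseudogenes of near-identical sequence, so their single values are uncertain where reads could be split. Of 46 initiation factor genes 43 were tested, of which 6 fell, 37 were not called and none (0) rose. The share that fell was 14.0%, against 7.83% of all genes. The median was -0.05, and 0.02 under the same FPKM total, less than the 0.07 of all genes. *Eif4g3* (-0.77) and *Eif1* (-0.62) led this list. Beside the ribosomal protein median stood values of -0.28 for *Eef1a1*, -0.33 for *Eef2* and -0.13 for *Eef1b2*. After quantile normalization they were -0.28, -0.21 and -0.26 beside a ribosomal protein median of -0.26, so that their order depends on the scaling, and no test of these differences was run.

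**Figure D4:**
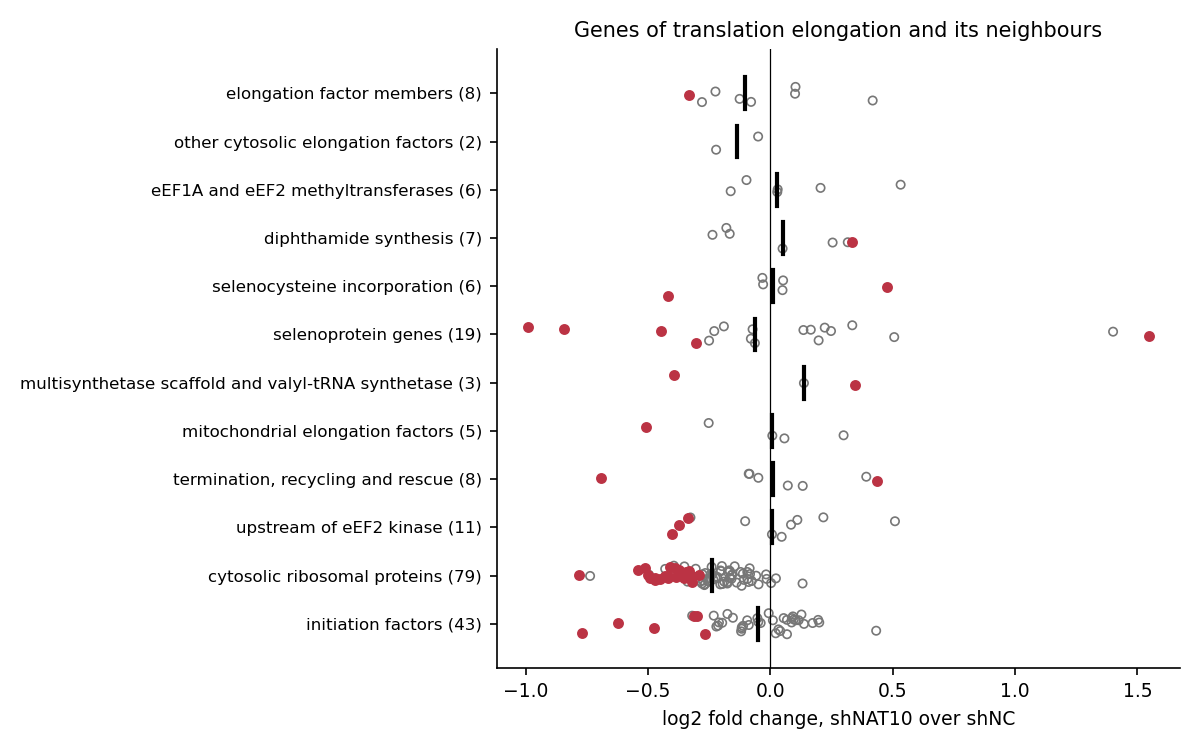
Log2 fold change, shNAT10 over shNC (x axis), of each gene tested in the elongation factor family and in 11 further lists, with the number tested in parentheses; filled red points passed the fold and p limits, open points did not, and black bars are list medians. The ribosomal proteins are displaced to the left (median -0.24), the family lies around -0.10, and most other medians are near 0.

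The genes most like *Eef1a1* were taken as the 5 with the smallest Euclidean distance of their centred log2(FPKM + 0.1) profile over the 4 libraries, among 3123 protein-coding candidates whose mean FPKM reached 10. These were *Impact* (distance 0.0144), *Srp72* (0.0185), *Nars* (0.0228), *Tgoln1* (0.0273) and *Ubb* (0.0292). *Srp72*, of the signal recognition particle, measured 118, 130, 100 and 104 FPKM, and *Nars*, the asparaginyl-tRNA synthetase, 234, 248, 197 and 202 FPKM. As for *Eef1a1*, shNC-2 was the highest library of both and shNAT10-1 the lowest, which follows from how they were picked. Likeness over 4 libraries is a description, and no other member was among the 5. *Eef2k* and *Eefsec* had means below 10 FPKM and were not candidates.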

How the data were processed

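Long RNA-seq was analysed for 2 shNC and 2 shNAT10 libraries, grouped by the sample titles. The authors deposited FPKM values per gene, without counts. Their processing notes name cutadapt, HISAT2, DESeq2 and mm10 (GRCm38), while the counting tool and annotation are not given in the sources used here. The labels describe mRNA isolation and a directional kit, and the paper's methods an rRNA-depletion kit. A second deposited table, with the authors' own fold changes and p-values, was not used, and 0 columns of single libraries were left out.

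Dividing FPKM by the step of each library, with exon lengths of GENCODE M21 found for 53360 genes (99.8%), gave fragments. Among low values (below 50 fragments), 96.3% were whole numbers to within 0.02. The steps follow median-ratio size factors, so that scaling is already in the deposited FPKM. Counting error takes fragments as independent, which PCR copies are not.

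Genes whose mean FPKM reached 0.1 were compared on log2(FPKM + 0.1), a scale that understates changes of low genes, with limma 3.58.1 in R 4.3.3 (trend, no replicate term, Benjamini-Hochberg adjustment). The thresholds were those the study used for this assay. Python 3.11.15 with pandas 2.3.3, numpy 2.4.6, scipy 1.17.1 and matplotlib 3.10.9 did the rest. In data simulated for this comparison over 20077 genes, with a log2 change of 0.6 set in 200 of them, limma called 192 of these and 4.50% of the unchanged genes, but gave 0 an adjusted p under 0.05, whereas limma-voom gave 169 one. The changed genes were drawn from deeply covered ones, and 1 dispersion (0.005) was set for all genes. Every member had an estimate smaller than 0.6, so these rates do not carry over to the members.

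The members and lists were chosen with earlier results of these data known. Named by rule were all members, *Nat10*, the 2 largest called changes of each list (those of the ribosomal proteins are not reported here), any gene of lists of at most 8 measured, and the 5 genes nearest to *Eef1a1*. *Selenos* and single markers were named after their values were seen. Alternatives were pseudocounts of 1 and 0.01, no filter, a mean FPKM of at least 1, 2 other scalings, a further median-ratio rescaling (the same factor in every library), no trend, a replicate block, each library left out, and limma-voom, with quantile normalization of the ratios added after seeing the data.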

Additional observations from a re-analysis of the deposited data

How the results depend on the processing

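Median-ratio rescaling had the same factor in all 4 libraries, repeats the reported fit and is not counted. Over the other 13 alternatives for each of the 8 members, 89 of 104 values kept their direction and their side of the threshold. With no filter, a mean FPKM of at least 1, no trend or a replicate block, the estimates equal those reported. Their direction was therefore fixed in advance there, and only their p could differ. The number of members called, 1 in the fit reported, was 2 with limma-voom (*Eef1a1* and *Eef2*) and 0 with no filter on low values, without the trend, and with every library left out in turn (range 0 to 0). *Eef2* was called in 4 of these 13 alternatives and negative in all 13, although its sign could not change in those that leave the estimate as it was. Its log2 fold changes were -0.38 to -0.29 when libraries were left out and -0.33 to -0.21 otherwise. After quantile normalization *Eef1a1* (-0.28) was called in its place, and with libraries scaled to the same FPKM total outside the rRNA-related loci *Eefsec* (0.49) was. The cause was not tested. The median of the members was -0.0306 with that scaling, where the median of all genes was 0.07, and -0.19 to -0.00691 with libraries left out, the ends being without shNC-1 and without shNC-2. *Eef1g* changed sign without shNAT10-1 (0.00238) and without shNC-2 (0.16), in a range of -0.32 to 0.16, and *Eef2k* without shNAT10-2 (-0.0484), in a range of -0.0484 to 0.25. Quantile normalization of the ratios was chosen after seeing the data. It turned *Eef2* over *Eef1a1* to 0.0706 and left *Eef1b2* over *Eef1a1* at 0.0213, while the other 3 ratios kept their sign and moved by less than the spread between replicates. In the 8 other alternatives all 5 ratios kept their sign, which the replicate block could not change. With libraries left out, *Eef1g* over *Eef1a1* ranged from 0.0141 to 0.387 and *Eef2* over *Eef1a1* from -0.0813 to -0.0243. *Eefsec* ranged from 0.27 to 0.56 and *Eef1b2* from -0.19 to -0.06.

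Libraries with the same number deviated together with a correlation of 0.00711 over all genes tested, and the labels give no shared source, so they were not treated as pairs. With the replicate number as a block, the number of members called was 0 (*Eef2*: log2 fold change -0.33, limma adjusted p = 0.334), and the median was -0.10. Leaving out 1 library leaves its group with 1 library, which is then assumed to vary like the other group. Depth limits *Eefsec* most, where counting error alone gives the shNC gap a log2 SD of 0.23. With 2 libraries per group, the intervals of members that were not called reach from -0.60 on the log2 scale (*Eef1a1*) to 0.87 (*Eefsec*).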
